A study of Mus musculus with 20 samples.

Results

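The 39 Hox genes of the mouse were described across fresh and cultured kidney cells with and without roxadustat. They were taken from the 47729 genes in the count tables as every symbol made of Hox, a cluster letter from a to d and a number, which gave 11 genes in cluster A, 10 in B, 9 in C and 9 in D. The cells had been dissociated from mouse kidney and sorted with magnetic beads for Sca-1, the surface antigen encoded by Ly6a, and the labels call them mesenchymal stem cell-like. Fresh control cells and fresh cells of mice given roxadustat by intraperitoneal injection (33 mg/kg for 7 days) made up day 0, with 2 libraries each. Cells grown in a medium for mesenchymal stem cells with fetal calf serum, antibiotics and 20% O2 made up day 7 and day 21, and each time had 4 libraries without and 4 with roxadustat. Roxadustat is a drug against anemia that inhibits the prolyl hydroxylases of hypoxia-inducible factor (HIF), which is then spared from breakdown. The series describes the culture as supplemented with roxadustat, but all labels carry the same protocol text, and it is not said if the mice behind the treated cultures had been injected. Strain, age and sex of the mice are not given. Nothing in the labels ties a replicate to an animal or a culture of its own, so the p-values here cover the spread among libraries alone, which may be technical.

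Hox genes encode transcription factors with a homeodomain and lie in 4 clusters, in which the paralog number tells the place of a gene along its cluster. Genes with low numbers are switched on early and reach far towards the head of the embryo, and genes with high numbers follow later and mark the trunk, the loin and the tail, so that the set of active Hox genes records the position of a cell along the body axis. Many adult stromal cells, fibroblasts above all, keep such a positional code in culture. In the kidney, the paralogs numbered 11 are known for starting the formation of the metanephros, and Hoxb7 for its activity in the ureteric bud and the collecting duct that grows from it.

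In mm10 (GRCm38), as annotated in GENCODE M21, cluster A lies on chromosome 6 on the minus strand, cluster B on chromosome 11, cluster C on chromosome 15 and cluster D on chromosome 2, the last 3 on the plus strand. RefSeq promoter windows of 300 bases (250 before to 50 after the start, GRCm38.p6) were matched for 22 of the 39 genes, in 24 windows. They were searched on both strands for ACGTG and GCGTG, the core letters of the element that HIF is known to bind. Of the Hox windows 29.2% held ACGTG, 37.5% GCGTG and 58.3% either, against 19.6%, 32.4% and 43.8% of all 32817 windows. The Hox windows had a median of 14.5 CpG pairs, and all windows 7. The promoters of 4 genes of contrasting behaviour are printed below 5′ to 3′ on the strand of the gene, with matches in capitals: Hoxb8 (chr11:96281655-96281954), with the largest fold of roxadustat over control cells among the genes described per library, Hoxd8 (chr2:74704365-74704664), which led in fresh cells, Hoxb4 (chr11:96318017-96318316), which was higher in roxadustat than in control cells at day 21, and Hoxa5 (chr6:52204538-52204837, minus strand), which was lower there.
Hoxb8: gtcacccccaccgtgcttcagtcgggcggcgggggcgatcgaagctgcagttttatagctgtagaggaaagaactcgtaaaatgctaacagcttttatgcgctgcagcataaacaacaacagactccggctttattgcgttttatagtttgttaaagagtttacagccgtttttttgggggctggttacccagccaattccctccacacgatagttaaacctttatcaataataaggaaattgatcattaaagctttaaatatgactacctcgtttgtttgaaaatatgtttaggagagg
Hoxd8: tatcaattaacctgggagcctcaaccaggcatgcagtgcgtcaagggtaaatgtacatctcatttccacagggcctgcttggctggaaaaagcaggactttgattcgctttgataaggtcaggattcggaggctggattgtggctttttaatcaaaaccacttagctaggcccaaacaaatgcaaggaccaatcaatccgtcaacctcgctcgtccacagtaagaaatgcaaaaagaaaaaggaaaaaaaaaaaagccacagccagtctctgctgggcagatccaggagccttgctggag
Hoxb4: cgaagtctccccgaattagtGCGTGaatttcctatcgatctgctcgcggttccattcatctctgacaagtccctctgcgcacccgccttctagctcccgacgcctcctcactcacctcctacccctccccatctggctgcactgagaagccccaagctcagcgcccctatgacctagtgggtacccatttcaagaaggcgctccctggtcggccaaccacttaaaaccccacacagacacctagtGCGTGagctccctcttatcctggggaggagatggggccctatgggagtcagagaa
Hoxa5: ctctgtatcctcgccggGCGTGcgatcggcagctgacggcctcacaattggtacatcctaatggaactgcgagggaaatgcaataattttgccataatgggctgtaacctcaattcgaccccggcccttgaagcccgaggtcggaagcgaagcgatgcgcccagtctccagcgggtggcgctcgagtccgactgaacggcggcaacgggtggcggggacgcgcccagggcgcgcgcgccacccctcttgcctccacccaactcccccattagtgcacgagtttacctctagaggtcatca
GCGTG was found 2 times in the Hoxb4 window and 1 time in the Hoxa5 window, and neither motif in those of Hoxb8 and Hoxd8. Matches of these letters are a description of the windows, and binding was not measured.

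Libraries held 8.502 to 19.9 M (mega) counts. No pair of replicates agreed within counting noise. Control libraries at day 21 paired up closely, with 1 near 2 and 3 near 4 by replicate number, and the 2 control libraries at day 0 differed more than any other pair of replicates. Against the label, markers of kidney tubules were abundant in fresh cells. The summed level of 8 proximal tubule genes was 20000 to 21000 CPM (counts per mega count of the library) in fresh control and 20800 to 21800 CPM in fresh roxadustat libraries, and that of 10 interstitial fibroblast genes 263 to 446 and 1480 to 2480 CPM. In culture the fibroblast genes led, with 10500 to 11100 CPM in control and 6540 to 7600 CPM in roxadustat libraries at day 7 and 47300 to 50500 and 2520 to 3760 CPM at day 21. Fewer cells of a type and less RNA per cell cannot be told apart in these bulk libraries. Of the 39 Hox genes, 32 had enough counts to be tested among 18731 genes, and the other 7 are given by their counts below.

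**Figure D1:**
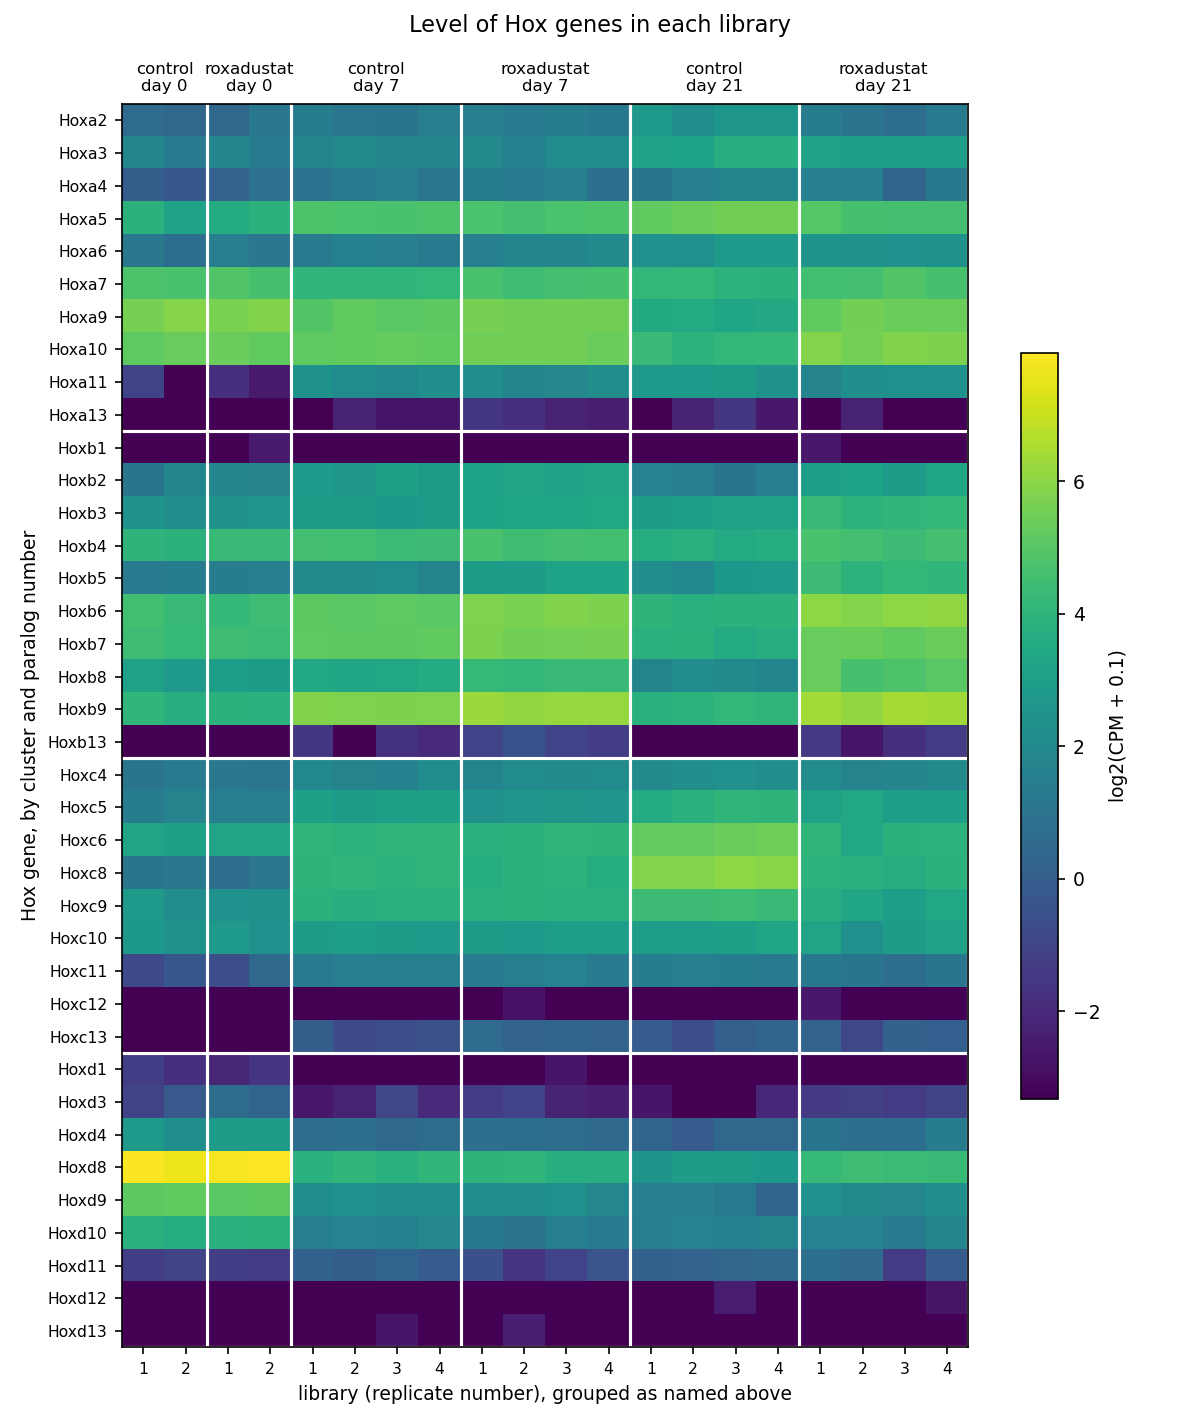
Level of the Hox genes (rows, by cluster and paralog number) in each of the 20 libraries (columns, by group) as log2(CPM + 0.1), with brighter colours for higher levels. Hoxd8 is the brightest gene of the fresh libraries, Hoxb6, Hoxb7 and Hoxb9 are bright at day 7 and in roxadustat libraries at day 21, Hoxc6 and Hoxc8 in control libraries at day 21, and the untested end genes are dark.

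Fresh cells carried a Hox profile led by cluster D. Compared per length of exon, as CPM per kilobase, cluster D held 52.9% ± 0.552 (SD, n = 2) of the summed Hox level in fresh control cells and 53.0% ± 1.57 in fresh roxadustat cells. Clusters A and B each held 20.6% in control cells, and cluster C 5.91%. Hoxd8, a gene of the trunk region, made up most of the D share, with a mean of 80.3 CPM per kilobase in control cells, followed by Hoxd9 with 16.4 and Hoxb7 with 13.1. The same 3 genes led in fresh roxadustat cells, in the same order, with 84.7, 15.9 and 13.6 CPM per kilobase. Group 8 paralogs together held 41.7% of the Hox level in control cells and group 9 paralogs 17.2%, while the kidney-forming group 11 held 0.23% and groups 12 and 13 had no count.

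No Hox gene passed the test between fresh roxadustat and fresh control cells (edgeR's quasi-likelihood test, Benjamini-Hochberg adjusted p under 0.05), where 6.83% of all genes tested did. At an unadjusted p under 0.05 there were 2 higher Hox genes and 0 lower, against 18.9% of all genes, and DESeq2 called none. Hoxb4, known for expanding blood stem cells, had 15.8 and 15.1 CPM in control and 20.0 and 19.5 CPM in roxadustat libraries, which did not overlap (log2 fold change 0.36 ± 0.12 (SE), adjusted p = 0.0736). It passed with scaling by library size alone (0.41, adjusted p = 0.0349). Hoxd8 overlapped between the groups, with 237 and 203 CPM in control and 219 and 246 CPM in roxadustat libraries. With control replicate 1 left out, Hoxa5 passed (0.58, adjusted p = 0.0331).

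With the move into culture the D cluster fell and the other clusters rose. Between day 0 and day 7, 22 of the 32 Hox genes rose and 7 fell in control cells, where 37% of all genes rose and 39.5% fell (76.5% in all), and 22 rose and 5 fell in roxadustat cells, where 37.1% and 37.6% did (74.6%). The median Hox log2 fold change was 0.72 in control and 0.77 in roxadustat cells, against -0.03 and 0.03 over all genes. Scaling by library size alone moved the median of all genes to 0.4 in control and 0.46 in roxadustat cells, and it called 48.4% of all genes higher and 30.1% lower in control and 50.6% and 27.8% in roxadustat cells. With it, 25 Hox genes rose and 6 fell in control and 26 and 5 in roxadustat cells. All 8 tested genes of cluster B and 7 of 8 of cluster C rose in each arm, with Hoxc10 the exception, and 5 of 6 tested genes of cluster D fell in each arm. In control cells the rise of Hoxb5 was lost with the replicate block (adjusted p = 0.0512) and without fresh control replicate 1 (0.0949) or 2 (0.0543). Without fresh control replicate 2 the rises of Hoxb8 (0.119) and Hoxa2 (0.0592) and the fall of Hoxd3 (0.323) were lost too, and that of Hoxd3 also with library size alone (0.0846). The rise of Hoxb4 in roxadustat cells was lost with the size factors of DESeq2 (adjusted p = 0.135) and with DESeq2 itself (0.162). It was also lost without roxadustat replicate 1 of day 7 (0.0645). Without fresh roxadustat replicate 1 or 2 its log2 fold change was 0.3 or 0.25. In roxadustat cells the rises of Hoxa2 and Hoxa10 were lost with these size factors (0.101 and 0.244) and with DESeq2 (0.139 and 0.274). Both were lost without roxadustat replicate 1, 2 or 3 of day 7 (0.0506 to 0.0823 and 0.0512 to 0.0625). Hoxa2 also lost its call with the replicate block (0.0699), only the groups compared (0.078) and no filter (0.057). Without fresh roxadustat replicate 1 Hoxa2 was at 0.2, and without replicate 2 Hoxa10 was at 0.14. Leaving out single libraries gave 18 to 22 risers in each arm. Between these times the summed proximal tubule markers dropped to 83.7 to 90.0 CPM in control and 249 to 256 CPM in roxadustat libraries. Their part in the fall of cluster D was not tested.

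Hoxd8 (ENSMUSG00000027102, chr2:74704615-74707933) showed the move most plainly. At day 7 it had 14.4, 16.9, 14.3 and 17.2 CPM in control and 15.8, 17.0, 13.1 and 12.8 CPM in roxadustat libraries, all far below the fresh cells. It was 14-fold lower than at day 0 in control cells (log2 fold change -3.81 ± 0.1, adjusted p = 1.11e-22) and 15.8-fold lower in roxadustat cells (-3.98 ± 0.1, adjusted p = 4.71e-23). Hoxd9, a gene of the loin and hindlimb region, went from 34.1 and 36.1 CPM in fresh control libraries to 4.85, 5.13, 4.44 and 4.51 CPM at day 7, 7.41-fold lower. In roxadustat cells it went from 33.0 and 34.8 CPM to 4.61, 4.2, 4.96 and 3.57 CPM, 7.84-fold lower. Hoxd10, its neighbour towards the end of the cluster, had 14.5 and 12.3 CPM in fresh control and 14.4 and 14.8 CPM in fresh roxadustat libraries. It was 4.26-fold lower at day 7 in control and 6.29-fold lower in roxadustat cells. Hoxd11, of the kidney-forming group, was the tested D gene that rose in control cells, with mean levels of 0.36 CPM at day 0 and 0.981 CPM at day 7, a call that was lost without fresh control replicate 1 (adjusted p = 0.0642).

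Hoxa11 and Hoxc8 made the opposite move. Hoxa11, a paralog of Hoxd11, had 0.389 and 0.0 CPM in fresh control and 0.199 and 0.0761 CPM in fresh roxadustat libraries. At day 7 it had 5.31, 4.29, 3.68 and 4.62 CPM in control libraries, 21.9-fold higher (log2 fold change 4.46 ± 0.43). The roxadustat libraries had 4.66, 3.49, 3.65 and 4.57 CPM, 27.6-fold higher (4.79 ± 0.47). Of its exon bases 35% are shared with the antisense gene Hoxa11os, and the library does not mark strand, so reads of the 2 cannot be told apart. Hoxc8, a gene of the thoracic region, rose from 1.95 and 2.17 CPM to 16.1, 17.0, 15.4 and 16.4 CPM in control libraries, 7.86-fold. In roxadustat libraries it rose from 1.52 and 2.05 CPM to 12.5, 15.2, 15.5 and 12.3 CPM, 7.79-fold. At day 7 the Hox level was thus led by cluster B, which held 48.0% in control and 54.9% in roxadustat cells, with Hoxb7, Hoxb9 and Hoxb6 as the leading genes of both groups.

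**Figure D2:**
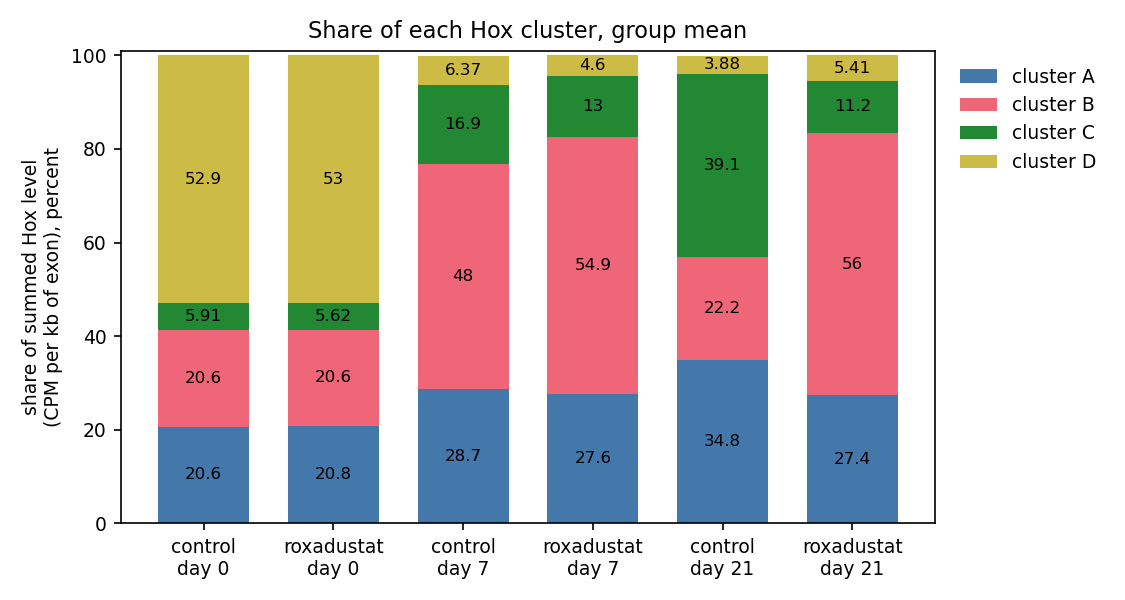
Mean share in percent (y axis) of the summed Hox level, in CPM per kilobase of exon, held by clusters A, B, C and D in each of the 6 groups (bars). Cluster D makes up 52.9% and 53.0% at day 0, and at day 21 cluster C makes up 39.1% in control and 11.2% in roxadustat cells, against 22.2% and 56.0% for cluster B.

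At day 7, roxadustat cells were higher in 7 of 8 tested genes of the B cluster and in fewer genes elsewhere. Of the 32 Hox genes, 12 were higher and 4 lower than in control cells, where 24.1% of all genes were higher and 23.6% lower. The Hox share in all, 50%, lay near the 47.7% of all genes. The median Hox log2 fold change was 0.12, against 0.03 over all genes. The higher genes were 7 of 8 in cluster B, 4 of 10 in cluster A (Hoxa7, Hoxa9 and Hoxa10 among them) and Hoxc13, and the lower ones Hoxc5, Hoxc8, Hoxd10 and Hoxd11. At day 21 the differences were wider. There 16 of 32 were higher and 8 lower, where 30% of all genes were higher and 32.9% lower (62.9% in all), and the Hox median was 0.31 against 0 over all genes. Scaling by library size alone moved the median of all genes at day 21 to 0.34 and called 50% of them higher and 18.9% lower, and 17 and 6 Hox genes. By cluster, with the scaling used throughout, the test called 8 of 8 B genes higher and none lower, 4 of 6 D genes higher and none lower, 4 of 8 C genes lower and none higher, and 4 A genes higher and 4 lower of 10. Median log2 fold changes were 1.72 in B, 0.85 in D, -0.58 in C and -0.19 in A. Over the 16 alternatives run for this day, 8 to 9 B genes were higher and 4 to 6 C genes lower, with none called the other way in either cluster.

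In cluster B, Hoxb8 (ENSMUSG00000056648, chr11:96281905-96285315), a trunk gene also known for grooming behaviour and for microglia, had the largest fold between the arms among the B genes. It had 8.63 and 6.58 CPM in fresh control and 7.68 and 6.92 CPM in fresh roxadustat libraries, which overlapped. At day 7 control libraries had 10.8, 9.81, 10.8 and 12 CPM and roxadustat libraries 18.6, 17.6, 19.1 and 19.0 CPM. At day 21 they had 3.25, 4.26, 4.15 and 3.51 CPM against 40.1, 24.9, 27.9 and 33.2 CPM, with every roxadustat library above every control library. The difference was 1.71-fold at day 7 (log2 0.77 ± 0.12, adjusted p = 3.28e-06) and 8.32-fold at day 21 (3.06 ± 0.14, adjusted p = 5.1e-17), and the 2 differences differed by 2.29 ± 0.18 (adjusted p = 4.07e-11). From day 7 to day 21 Hoxb8 fell 2.87-fold in control cells and rose 1.7-fold in roxadustat cells.

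Hoxb9 (ENSMUSG00000020875, chr11:96271457-96276595), at the posterior end of the run of B genes, had 17.1 and 13.7 CPM in fresh control and 15.0 and 14.5 CPM in fresh roxadustat libraries. At day 7 it had 55.8, 54.4, 51.9 and 53.8 CPM in control and 75.0, 68.9, 74.8 and 71 CPM in roxadustat libraries. At day 21 control libraries had 14.2, 15.7, 17.3 and 16.6 CPM, back at the fresh level, and roxadustat libraries 83.2, 70.1, 85.5 and 81.7 CPM. The fold at day 21 was 5.02 (log2 2.33 ± 0.07, adjusted p = 1.33e-20). Hoxb6 (ENSMUSG00000000690, chr11:96292476-96301569), a trunk gene, had 34.0, 33.5, 34.9 and 33.6 CPM in control and 54.2, 51.0, 55.3 and 52.1 CPM in roxadustat libraries at day 7. Day 21 libraries had 15.8, 14.2, 15.2 and 14.8 CPM against 65.9, 57.6, 64.9 and 66.6 CPM, 4.25-fold (2.09 ± 0.07, adjusted p = 6.54e-20). Its fresh libraries had 22.8 and 19.0 CPM in control and 18.0 and 21.9 CPM in roxadustat cells.

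Hoxb7, the ureteric bud gene, had 21.6 and 18.8 CPM in fresh control and 21.6 and 20.5 CPM in fresh roxadustat libraries. It had 35.1, 34.4, 34.5 and 36.5 CPM against 53.4, 46.8, 48.3 and 49.3 CPM at day 7. The day 21 libraries had 14.7, 14.8, 11.7 and 12.7 CPM against 39.4, 42.4, 36.2 and 42.0 CPM, 2.96-fold (log2 1.57 ± 0.08, adjusted p = 2.33e-16). Unlike Hoxb8, it fell between these days in both arms, by 1.37 on the log2 scale in control and by 0.3 in roxadustat cells, a difference of 1.07 by the interaction. The summed level of 8 collecting duct markers, the segment that Hoxb7 is known to mark, was 2.4 to 3.51 CPM in control and 6.06 to 8.1 CPM in roxadustat libraries at day 21. Of the 7 markers tested 3 were higher and none lower, where 30% of all genes were higher and 32.9% lower. In fresh cells the sum was 680 to 700 CPM in control and 391 to 428 CPM in roxadustat libraries. There 5 of the 7 were lower and none higher, where 4.11% of all genes were lower and 2.73% higher. The part of these markers in the level of Hoxb7 was not tested.

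The tested B genes with lower numbers, known for patterning the hindbrain and neck, differed in the same direction at day 21. Hoxb5 had 2.47 and 2.63 CPM in fresh control and 2.65 and 2.89 CPM in fresh roxadustat libraries, then 4.08, 3.9, 4.17 and 3.27 CPM against 6.96, 7.32, 9.05 and 9.05 CPM at day 7. At day 21 it had 4.67, 3.72, 6.31 and 6.6 CPM against 21.2, 15.3, 18.3 and 16.8 CPM, 3.39-fold (log2 1.76 ± 0.14, adjusted p = 1.25e-11). Its control libraries of replicates 3 and 4 were the higher ones. Hoxb4 had 23.7, 23.1, 20.1 and 20.8 CPM against 25.7, 21.8, 23.8 and 23.2 CPM at day 7, which overlapped, and it was the tested B gene that did not pass there (0.11, adjusted p = 0.263). By day 21 it had 12.5, 14.3, 11.7 and 12.5 CPM against 26.4, 24, 20.8 and 24.7 CPM, 1.88-fold (0.91 ± 0.08, adjusted p = 2.49e-10). The groups were apart at day 21.

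Hoxb3 had 5.19 and 4.67 CPM in fresh control and 5.23 and 5.93 CPM in fresh roxadustat libraries, and 7.05, 7.03, 6.33 and 7.09 CPM against 9.22, 9.68, 9.76 and 10.3 CPM at day 7. It had 7.12, 7.74, 8.54 and 8.57 CPM against 19.9, 15.7, 16.9 and 18.1 CPM at day 21, 2.21-fold (log2 1.15 ± 0.09, adjusted p = 1.79e-11). Of its exon bases 52.9% are shared with the antisense gene Hoxb3os, so its level is uncertain. Hoxb2 had 2.01 and 3.55 CPM in fresh control and 3.38 and 3.19 CPM in fresh roxadustat libraries. It had 6.6, 6.13, 8.11 and 7.03 CPM against 9.22, 9.39, 8.94 and 9.36 CPM at day 7, and 3.07, 2.7, 2.0 and 2.81 CPM against 7.96, 9.05, 7.06 and 9.83 CPM at day 21. The last difference was 3.21-fold (1.68 ± 0.15, adjusted p = 1.19e-10). For Hoxb2 the shared part of the exons was 27.3%.

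Cluster C ran the other way at day 21. Hoxc8 (ENSMUSG00000001657, chr15:102990607-102994111) had 57.1, 58.1, 66.0 and 61.4 CPM in control and 15.6, 14.2, 12.8 and 15.0 CPM in roxadustat libraries, 4.18-fold lower (log2 -2.06 ± 0.08, adjusted p = 1.5e-18). Between day 7 and day 21 it had risen 3.73-fold in control cells, while the change in roxadustat cells was 0.06 (adjusted p = 0.539), and the difference between the arms was -1.84 (adjusted p = 2.54e-13). At day 7 it was slightly lower in roxadustat cells (-0.23 ± 0.08, adjusted p = 0.0285). That call was lost without control replicate 2 (adjusted p = 0.0806) or 4 (0.0594), without roxadustat replicate 1 (0.106) or 4 (0.121) and with scaling by library size alone (0.12). Hoxc6, of the thoracic region too, had 9.41 and 8.42 CPM in fresh control and 9.47 and 9.43 CPM in fresh roxadustat libraries. It overlapped at day 7, with 16.2, 15.3, 17.1 and 17.0 CPM against 14.7, 15.1, 16.6 and 15.8 CPM. By day 21 it had 38.1, 37.2, 41.8 and 44.3 CPM against 16.4, 10.4, 15.2 and 15.5 CPM, 2.82-fold lower (-1.49 ± 0.1, adjusted p = 1.04e-13).

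Hoxc9 had 6.62 and 4.54 CPM in fresh control and 4.97 and 5.32 CPM in fresh roxadustat libraries, and 14.9, 13.4, 14.4 and 14.2 CPM against 14.5, 15.1, 14.2 and 14.3 CPM at day 7. In the day 21 libraries it had 20.8, 21.0, 21.7 and 19.6 CPM against 12.9, 9.71, 7.95 and 10.7 CPM, 1.99-fold lower (log2 -1.0 ± 0.1, adjusted p = 1.77e-09). It rose from day 7 to day 21 in control cells by 0.55 on the log2 scale and fell by 0.48 in roxadustat cells. Hoxc5 had 2.53 and 3.22 CPM in fresh control and 2.72 and 2.74 CPM in fresh roxadustat libraries. It was lower in roxadustat cells at both times in culture, with 8.48, 7.36, 8.06 and 8.32 CPM against 5.04, 5.85, 6.16 and 5.88 CPM at day 7 and 12, 13.9, 16.6 and 15.9 CPM against 8.71, 10.6, 7.85 and 7.57 CPM at day 21. The log2 fold changes were -0.49 ± 0.12 (adjusted p = 0.00138) and -0.74 ± 0.12 (adjusted p = 2.57e-06), and they did not differ by the interaction test (adjusted p = 0.242). The fibroblast markers moved the same way, with all 10 lower in roxadustat cells at day 21, where 32.9% of all genes were. So did 8 of 8 pericyte markers and 10 of 10 macrophage markers. At day 7, 6 of 10 fibroblast, 6 of 8 pericyte and 10 of 10 macrophage markers were already lower, where 23.6% of all genes were. There 1 pericyte marker was higher. In fresh roxadustat cells 6 fibroblast and 8 macrophage markers were higher and 2 pericyte markers lower, where 2.73% and 4.11% of all genes were. The part of these markers' cells in the C cluster levels was not tested.

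Of the other C genes, Hoxc10, of the loin region, passed in no comparison, with group means between 5.68 and 8.34 CPM. Hoxc4 and Hoxc11 had group means of 2.12 to 4.57 and 0.589 to 2.66 CPM and did not pass between roxadustat and control cells on any day. Hoxc13, known for hair and nail formation, had no count in fresh cells and means of 0.635 CPM in control and 1.19 CPM in roxadustat libraries at day 7 (log2 0.92 ± 0.29, adjusted p = 0.011). Set against a floor of 3 counts for the whole group, it was at least 6.37-fold higher at day 7 than in fresh cells in control and at least 11.2-fold in roxadustat libraries. At day 21 its means were 0.888 and 0.865 CPM.

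Cluster A was split at day 21, with Hoxa7, Hoxa9 and Hoxa10 among the genes higher in roxadustat cells and Hoxa2, Hoxa3, Hoxa5 and Hoxa11 lower. Hoxa9 (ENSMUSG00000038227, chr6:52223100-52231089), known from blood progenitors and leukaemia, had 49.5 and 60.3 CPM in fresh control and 51.8 and 55.6 CPM in fresh roxadustat libraries. It had 29.9, 36.1, 33.6 and 34.0 CPM against 49.7, 46.9, 45.9 and 44.8 CPM at day 7, and 11.4, 11.9, 9.82 and 11.1 CPM against 36.3, 47.0, 41.9 and 42.0 CPM at day 21. The difference was 3.77-fold at day 21 (log2 1.91 ± 0.09, adjusted p = 4.52e-17). From day 7 to day 21 it fell by 1.59 on the log2 scale in control cells, and in roxadustat cells the change was -0.16 (adjusted p = 0.0662). Hoxa10, known for the uterus and the loin vertebrae, had 34.9 and 40.0 CPM in fresh control and 40.9 and 36.5 CPM in fresh roxadustat libraries. It had 34.9, 37.0, 38.4 and 36.9 CPM against 45.6, 46.3, 45.4 and 41.7 CPM at day 7. Day 21 libraries had 19.2, 15.7, 17.5 and 18 CPM against 58.1, 48.4, 55.9 and 52.0 CPM, 3.04-fold (1.6 ± 0.07, adjusted p = 5.33e-17).

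Hoxa7 had 28.0 and 25.7 CPM in fresh control and 29.1 and 25.3 CPM in fresh roxadustat libraries. It was higher in roxadustat cells by a like amount at both times, with 16.9, 16.4, 16.3 and 17.4 CPM against 25.9, 21.6, 24.4 and 25.6 CPM at day 7 and 17.6, 17.8, 15.7 and 15.2 CPM against 22.9, 23.8, 29.3 and 25.4 CPM at day 21. The log2 fold changes were 0.54 ± 0.08 (adjusted p = 2.71e-06) and 0.6 ± 0.08 (adjusted p = 4.22e-07). Of its exon bases 20.4% are shared with other genes.

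Hoxa5 (ENSMUSG00000038253, chr6:52201754-52204587), known for lung and shoulder development, had 14.9 and 8.95 CPM in fresh control and 12.2 and 14.8 CPM in fresh roxadustat libraries. It overlapped at day 7, with 27.3, 27.2, 26.4 and 27.3 CPM against 26.5, 24.7, 26.9 and 28.3 CPM. At day 21 it had 36.7, 41.0, 44.5 and 45.2 CPM against 31.5, 25.1, 24.3 and 24.8 CPM, 1.58-fold lower (log2 -0.66 ± 0.1, adjusted p = 3.56e-06). Hoxa2, of the branchial arches, had 1.43 and 1.25 CPM in fresh control and 1.26 and 2.21 CPM in fresh roxadustat libraries, and 2.52, 2.06, 2.0 and 2.68 CPM against 2.69, 2.36, 2.67 and 2.26 CPM at day 7. Its day 21 libraries had 6.45, 4.86, 6.23 and 6.18 CPM against 2.59, 1.94, 1.59 and 2.51 CPM, 2.68-fold lower (-1.42 ± 0.17, adjusted p = 2.75e-08). For Hoxa2 and Hoxa5 alike the control libraries had risen since day 7 and the roxadustat libraries had not passed the test of a change.

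Hoxa3 and Hoxa11 were lower in roxadustat than in control cells at day 21 by less, and less firmly. Hoxa3, known for thymus and parathyroid formation, had 3.51 and 2.5 CPM in fresh control and 3.51 and 2.36 CPM in fresh roxadustat libraries, and 3.24, 3.85, 3.35 and 3.33 CPM against 3.79, 3.02, 4.25 and 4.34 CPM at day 7. At day 21 it had 8.78, 9.06, 13.1 and 13.3 CPM against 8.98, 7.66, 7.56 and 7.67 CPM (log2 -0.46 ± 0.14, adjusted p = 0.00617). Here the groups overlapped, and the call was lost without control replicates 3 and 4 (adjusted p = 0.353) and with scaling by library size alone (0.481). Hoxa11 had 6.63, 6.66, 6.95 and 5.27 CPM against 3.2, 4.77, 4.87 and 5.11 CPM (-0.5 ± 0.18, adjusted p = 0.017). It was lost without roxadustat replicate 1 (0.0827), without control replicates 1 and 2 (0.105) and with scaling by library size alone (0.462). Exons shared with other genes made up 27.1% of Hoxa3. Hoxa4 and Hoxa6, with group means of 0.816 to 2.89 and 1.89 to 5.85 CPM, did not pass between roxadustat and control cells on any day.

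In cluster D, the genes numbered 8 and 9 that had led in fresh cells were higher in roxadustat cells at day 21 at a low level. Hoxd8 had 5.59, 7.38, 7.03 and 6.32 CPM in control and 18.4, 21.7, 20.3 and 19.1 CPM in roxadustat libraries, 3.02-fold (log2 1.6 ± 0.11, adjusted p = 8.37e-13), after no detected difference at day 7 (-0.1 ± 0.1, adjusted p = 0.437). Both were far below the fresh cells. Hoxd9 had 2.89, 2.94, 2.48 and 1.19 CPM against 5.03, 3.89, 3.58 and 4.82 CPM, 1.82-fold (0.87 ± 0.18, adjusted p = 0.000123). Hoxd4 had 6.75 and 4.74 CPM in fresh control and 7.22 and 7.15 CPM in fresh roxadustat libraries, and 1.55, 1.67, 1.24 and 1.5 CPM against 1.63, 1.56, 1.47 and 1.36 CPM at day 7. The day 21 libraries had 1.17, 0.84, 1.28 and 1.26 CPM against 1.97, 1.67, 1.59 and 2.66 CPM, 1.79-fold (0.84 ± 0.22, adjusted p = 0.00133). It and Hoxd3 share 52.3% and 62.8% of their exon bases with other genes, and with each other, so neither level is certain.

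Hoxd3 had means of 0.0505 CPM, or 3 counts over the group, in control and 0.324 CPM in roxadustat libraries at day 21 (adjusted p = 0.00508), a call that was lost without control replicates 1 and 2 (adjusted p = 0.0669). Hoxd10 was lower in roxadustat cells at day 7, with 2.78, 3.12, 3.03 and 3.6 CPM against 2.26, 1.94, 2.78 and 2.31 CPM, where the groups did not overlap but the highest roxadustat and the lowest control library both rounded to 2.78 CPM (log2 -0.44 ± 0.14, adjusted p = 0.0111). Without control replicate 4 the call was lost (adjusted p = 0.0528). At day 21 Hoxd10 had 2.76, 3.06, 3.03 and 3.3 CPM against 3.06, 3.11, 2.49 and 3.44 CPM, which overlapped. Hoxd11 had means of 0.981 and 0.468 CPM at day 7 (-1.04 ± 0.34, adjusted p = 0.0123), lost without roxadustat replicate 2 (0.0558), and 1.16 and 1.05 CPM at day 21. Summed epithelial markers (11 genes) were 219 to 230 CPM in control and 504 to 519 CPM in roxadustat libraries at day 7. At day 21 the sums were 15.5 to 19.2 and 438 to 471 CPM. All 11 were higher in roxadustat cells at both times, where 24.1% of all genes were at day 7 and 30% at day 21. In fresh cells the 11 markers summed to 3440 to 3520 CPM in control and 2740 to 2870 CPM in roxadustat libraries. There 6 of the 11 were lower and none higher, where 4.11% of all genes were lower and 2.73% higher. The 8 proximal tubule markers summed to 8.17 to 10.9 CPM in control cells of day 21. Their sum was 296 to 306 CPM with roxadustat. Of the 8, 5 passed as higher and none as lower, where 30% of all genes were higher and 32.9% lower. Among the 8 markers, Hnf4a and Slc22a6 had no count in these control cells, and Slc22a6 had none with roxadustat either. The part of epithelial and proximal tubule cells in the levels of clusters B and D was not tested.

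**Figure D3:**
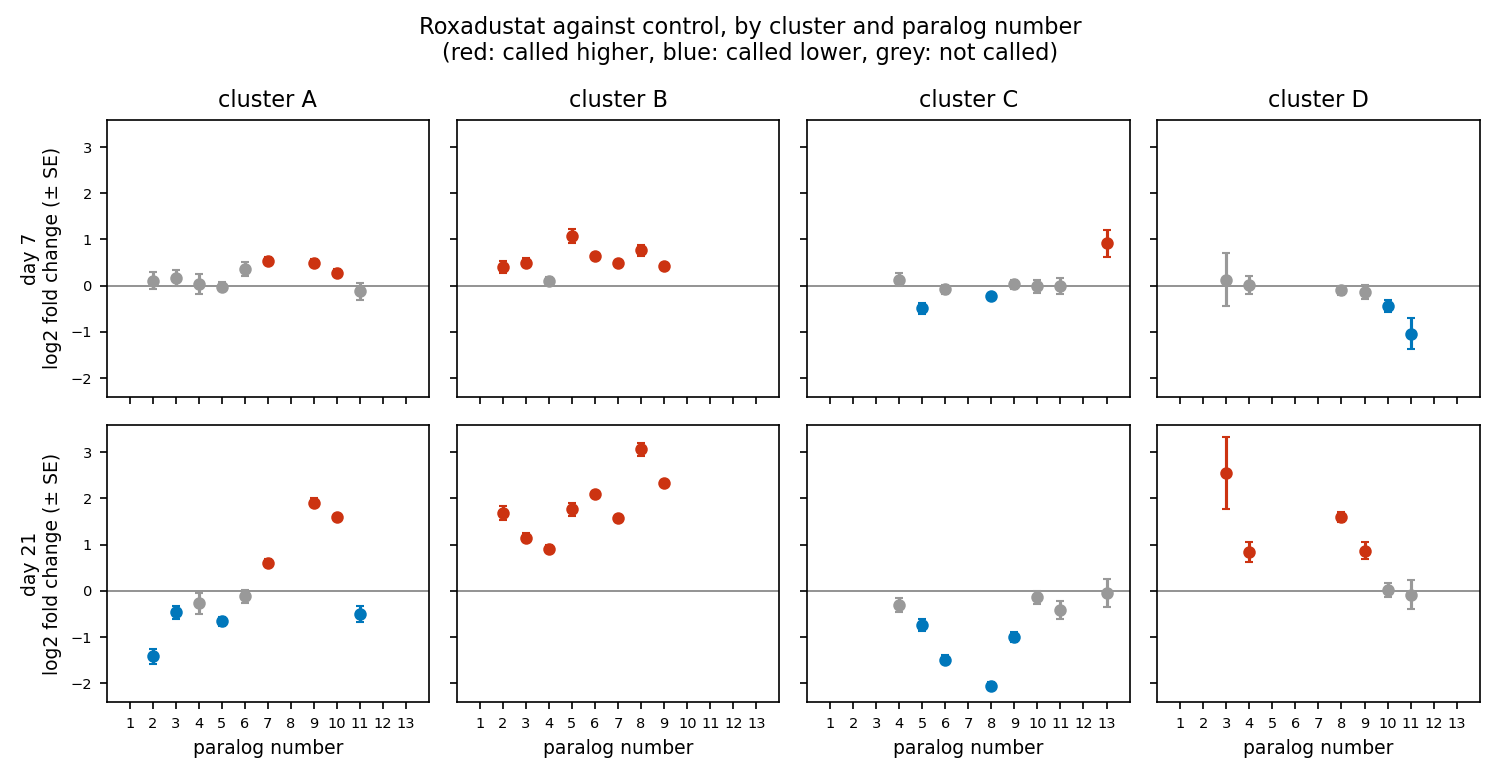
Log2 fold change of roxadustat against control ± SE (y axis) by paralog number (x axis) for Hox genes of each cluster at day 7 and day 21. Red points passed the test as higher, blue points as lower and grey points did not pass, and at day 21 the 8 tested B genes are all red and the 4 C genes that passed all blue.

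Read by paralog number, members of 1 group moved in opposite directions at day 21. In group 2 Hoxb2 was higher and Hoxa2 lower. In group 5 Hoxb5 was higher and Hoxa5 and Hoxc5 lower, and in group 6 Hoxb6 was higher and Hoxc6 lower. Group 8 had Hoxb8 and Hoxd8 higher and Hoxc8 lower, and group 9 had Hoxa9, Hoxb9 and Hoxd9 higher and Hoxc9 lower. Group 3 had Hoxb3 and Hoxd3 higher and Hoxa3 lower. In group 7 both members, Hoxa7 and Hoxb7, were higher, and in groups 4 and 10 the genes that passed, Hoxb4, Hoxd4 and Hoxa10, were higher. In group 11 Hoxa11 was lower. The summed level of group 8 was therefore close in the 2 arms at day 21, with 25.3 ± 1.65 CPM per kilobase in control and 24.3 ± 2.4 in roxadustat cells (SD, n = 4), but Hoxc8 led in the former and Hoxb8 in the latter. The group 9 sum was 17.9 ± 0.685 CPM per kilobase, led by Hoxc9, against 44.9 ± 2.3, led by Hoxb9. The group 11 sum was 4.36 ± 0.358 against 3.18 ± 0.274 CPM per kilobase, with Hoxa11 leading in both.

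**Figure D4:**
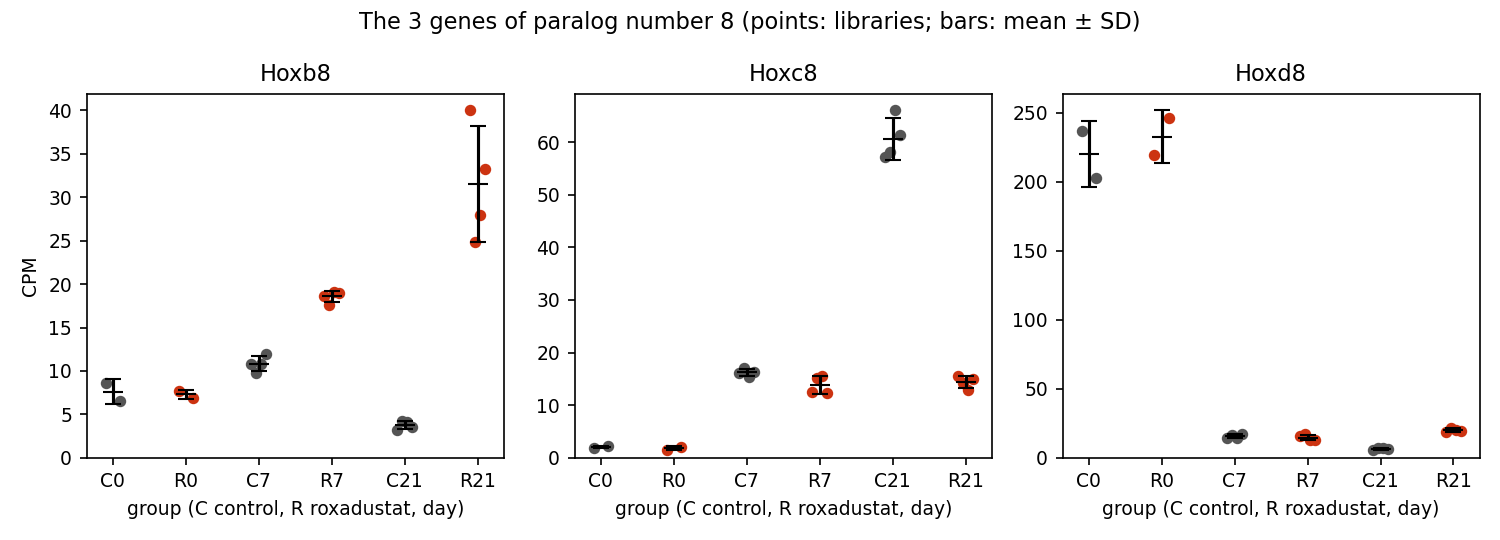
CPM (y axis) of the group 8 paralogs Hoxb8, Hoxc8 and Hoxd8 in each library (points) of the 6 groups (x axis), with the mean ± SD. At day 21 Hoxc8 lies at 57.1 to 66.0 CPM in control and 12.8 to 15.6 CPM in roxadustat libraries, while Hoxb8 lies at 3.25 to 4.26 and 24.9 to 40.1 CPM.

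The 2 arms changed differently between day 7 and day 21. In control cells 11 of 32 Hox genes rose and 11 fell, where 34.5% of all genes rose and 34.3% fell. The Hox share in all, 68.8%, lay near the 68.7% of all genes. The risers were 5 genes of cluster C, 5 of cluster A and Hoxb5, and the fallers 6 of 8 B genes, 3 A genes with Hoxa9 and Hoxa10 among them, Hoxd8 and Hoxd9. The rise of Hoxb5 was lost without control replicate 4 of day 7 (adjusted p = 0.0622), without control replicate 3 (0.0664) or 4 (0.0938) of day 21 and with library size alone (0.165), and without both of the latter replicates it was 0.13 (0.556). With scaling by library size alone 8 Hox genes rose and 14 fell, and 27% and 43.6% of all genes. In roxadustat cells 11 rose and 3 fell, where 28.6% and 32.9% of all genes did (61.5%). The test of the difference between the arms passed for 20 of 32 Hox genes, 14 higher and 6 lower in roxadustat cells, where 20.9% of all genes passed as higher and 23.8% as lower (44.7% in all). Library size alone gave 34.7% and 13.4% of all genes and 17 and 5 Hox genes. All 8 B genes and Hoxd3, Hoxd4, Hoxd8 and Hoxd9 were among the higher ones, and Hoxa2, Hoxa3, Hoxa5, Hoxc6, Hoxc8 and Hoxc9 were the lower ones. Among the higher and lower ones, Hoxd3 was lost with most single libraries left out (adjusted p up to 0.216), with the replicate block (0.0668), with DESeq2 (0.0576) and without a filter (0.0531). Hoxd4 was lost without control replicate 2 of day 7 (0.0509), control replicate 2 (0.0669) or roxadustat replicate 4 (0.0907) of day 21 and without a filter (0.061). Hoxa3 was lost without control replicate 3 (0.0528) or 4 (0.0576) of day 21, without roxadustat replicate 4 of day 7 (0.0562) and with library size alone (0.205). Without control replicates 1 and 2 of day 21, Hoxb5 (0.121) and Hoxd4 (0.126) were lost as well, and without replicates 3 and 4 Hoxa3 (0.223). From day 0 to day 7 the same test passed for 7 higher genes (Hoxa7, Hoxa9 and Hoxb5 to Hoxb9) and 1 lower (Hoxd10), where 15.5% and 13.4% of all genes did (28.9%), so that the Hox share, 25%, lay near that of all genes. Without control replicate 1 of day 0 it passed for 3 higher genes.

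In day 21 cells the leading genes were thus different. Control cells were led by Hoxa5 with 22.3 CPM per kilobase, Hoxc8 with 21.4 and Hoxc6 with 16.7, and roxadustat cells by Hoxb6 with 32.5, Hoxb9 with 31.1 and Hoxb7 with 25.9. Cluster C held 39.1% of the Hox level in control and 11.2% in roxadustat cells, and cluster B 22.2% ± 1.12 and 56.0% ± 0.683 (SD, n = 4). The B share of roxadustat cells at day 21 was near that of day 7, 54.9% ± 0.8. The summed Hox level was 151 CPM per kilobase in control and 221 in roxadustat cells at day 21, and 201 and 210 in fresh cells.

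The 7 genes that could not be tested carry the numbers 1, 12 and 13. Hoxb13, known for the tail and the prostate, had 11 counts over the control and 35 over the roxadustat libraries at day 7, 13 over the roxadustat libraries at day 21 and none in the fresh groups or control cells at day 21. With the same floor it was at least 4.1-fold higher in roxadustat cells at day 21. Hoxa13, of the limb tips and the genital tract, had 4 and 13 counts at day 7 and 6 and 2 at day 21, and none in fresh cells. Hoxd1, at the anterior end, was the reverse, with 8 counts in fresh control, 5 in fresh roxadustat and 1 in all cultured libraries. Hoxb1, Hoxc12, Hoxd12 and Hoxd13 had 0 to 2 counts in each group. A floor of 3 counts was 0.0364 to 0.106 CPM over a group and covers counting error only.

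Hox proteins bind DNA together with cofactors of the TALE class, and most of these were lower in roxadustat cells at day 21. Of the 9 TALE genes, 2 were lower at day 0 and none higher, 2 were higher and 4 lower at day 7, and 1 was higher and 6 lower at day 21, with a median log2 fold change of -0.73 there. Of all genes 4.11% were lower at day 0, 24.1% higher and 23.6% lower at day 7, and 30% higher and 32.9% lower at day 21. Meis1, a common partner of posterior Hox proteins, had means of 3.99 and 3.82 CPM in fresh control and roxadustat cells, 35.2 and 24.7 CPM at day 7 and 91.1 and 16.0 CPM at day 21. At day 21 the libraries ran from 89.7 to 93.0 CPM in control and from 13.9 to 18.8 CPM in roxadustat cells (log2 -2.49 ± 0.08, adjusted p = 7.89e-21). Pknox2, a relative of Meis1, had means of 16.4 and 2.91 CPM at day 21 (-2.49 ± 0.12, adjusted p = 9.69e-17). Pbx3 had 24.1 and 11.3 CPM (-1.09 ± 0.09, adjusted p = 2.61e-11) and Meis2 108 and 63.7 CPM (-0.76 ± 0.06, adjusted p = 4.04e-11), and both were lower in fresh roxadustat cells too (-0.52, adjusted p = 0.0292, and -0.7, adjusted p = 0.00106). The calls in fresh cells rest on 2 libraries a group and were not rerun with the alternatives. With only the groups compared, 0.0257% of all genes were lower at day 0. Among the other TALE genes, chosen after their values were seen, Pknox1 was the gene that was higher at day 21 (0.35). With scaling by library size alone Meis3 lost its call at day 21 (-0.02, adjusted p = 0.863) and Pbx2 was called higher (0.3).

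**Figure D5:**
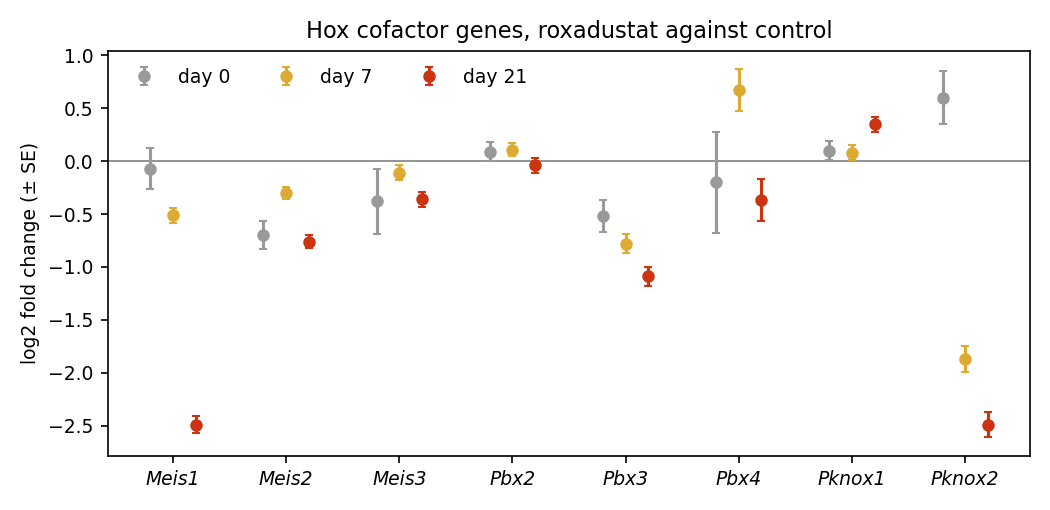
Log2 fold change of roxadustat against control ± SE (y axis) for TALE cofactors (x axis) at day 0, day 7 and day 21. Meis1 and Pknox2 lie lowest at day 21, each at -2.49.

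The partners and targets of the group 11 paralogs in the early kidney went both ways. Of 8 genes 7 were tested. At day 0 none passed, at day 7 2 were higher and 2 lower, and at day 21 3 were higher and 4 lower, where 47.7% and 62.9% of all genes passed in either direction. The median log2 fold change was -0.48 at day 21. Sall1, a zinc finger factor of nephron progenitors, had means of 30.3 and 34.9 CPM in fresh control and roxadustat cells, 23.4 and 59.0 CPM at day 7 and 4.12 and 113 CPM at day 21 (log2 4.8 ± 0.13, adjusted p = 2.51e-19). Gdnf, the signal that draws out the ureteric bud, had 3.51 and 9.1 CPM at day 7 and 0.905 and 9.19 CPM at day 21 (3.35 ± 0.19, adjusted p = 5.5e-15). Pax2, a factor of the kidney epithelium, had 2.03 and 22.5 CPM at day 21 (3.5 ± 0.28, adjusted p = 2.87e-09). Wt1, among the lower ones, lost its call with scaling by library size alone (-0.13, adjusted p = 0.341). Six2, the mark of nephron progenitors, was at 0 in all groups but 1, where its mean was 0.0113 CPM.

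Polycomb proteins keep Hox genes silent and trithorax proteins keep them active. Of 22 such genes none passed at day 0, 9 were higher and 3 lower at day 7, and 7 were higher and 5 lower at day 21. The share that passed lay near that of all genes (47.7% at day 7) or below it (62.9% at day 21), with a median log2 fold change of 0.08 at day 21. With scaling by library size alone 13 were higher and 2 lower at day 21, where 50% and 18.9% of all genes were. Cbx7, a reader of the Polycomb mark, had means of 29.6 and 29.0 CPM in fresh control and roxadustat cells, 5.09 and 9.28 CPM at day 7 and 4.42 and 14.1 CPM at day 21 (log2 1.67 ± 0.12, adjusted p = 5.13e-13). Cbx2, another reader, was lower, with 9.41 and 3.84 CPM at day 21 (-1.3 ± 0.13, adjusted p = 8.19e-10). Ezh1, a writer of the mark, had 34.7 and 60.9 CPM (0.81 ± 0.06, adjusted p = 5.07e-13) and Phc2, a subunit of the first Polycomb complex, 70.6 and 130 CPM (0.89 ± 0.07, adjusted p = 9.56e-12).

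Noncoding genes inside the clusters were counted too. Of 16 listed, 9 were tested, and at day 21 5 were higher and 1 lower, after 3 and 1 at day 7 and none at day 0. These shares lay near those of all genes (62.9% at day 21 and 47.7% at day 7), and the median log2 fold change at day 21 was 0.44. Hoxb3os in cluster B had means of 0.768 CPM in control and 2.38 CPM in roxadustat cells at day 21 (log2 1.67 ± 0.26, adjusted p = 2.72e-06). Hoxd3os1 in cluster D had 1.28 and 3.1 CPM (1.24 ± 0.23, adjusted p = 2.29e-05). Hoxaas2 in cluster A, where the anterior genes were lower, had 6.27 and 2.87 CPM (-1.12 ± 0.16, adjusted p = 9.48e-07). Hoxb5os had 4.09 and 5.51 CPM (0.44 ± 0.17, adjusted p = 0.0248), and its call was lost when any of 5 single libraries of that day was left out (adjusted p = 0.0503 to 0.0873) and without control replicates 3 and 4 (0.163). Without strand, reads of these genes and of the Hox genes they overlap cannot be told apart. Of 11 ParaHox and related homeobox genes, which lie outside the clusters, only Gbx1 and Gbx2 were tested. Both were lower at day 7, where 23.6% of all genes were. At day 21 1 was higher and 1 lower, where 30% and 32.9% of all genes were. The higher 1, Gbx1, lost its call without control replicates 1 and 2 of day 21 (0.93, adjusted p = 0.0639).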

How the data were processed

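RNA was measured in 20 libraries of 6 groups. The values the authors deposited are raw read counts for each Ensembl gene, made from a non-stranded mRNA library per the labels, with bcl2fastq, STAR 2.5.2a, featureCounts 1.5.0-p1 and mm10 per the submitters' processing notes. The annotation release is not given in the sources used here. Of 47729 genes 47310 matched GENCODE M21, which gave symbols, coordinates and exon lengths. No sample or column was left out.

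Counts of all 20 libraries were fitted in 1 model with edgeR 4.0.16 in R 4.3.3 (filterByExpr, TMM scaling, robust quasi-likelihood F test, Benjamini-Hochberg adjustment over 18731 genes, threshold 0.05). Levels are CPM scaled by TMM, and levels of different genes were compared per kilobase of exon. Dividing the size of a log2 fold change by the root of its F gave the SE. Alternatives were scaling with the size factors of DESeq2 or with library size alone, no filter (34124 genes), DESeq2 1.42.0, the replicate number as a block, only the groups compared and leaving out each library. After seeing the data, leaving out either pair of control day 21 libraries and exon length without shared bases were added. A library left alone in its group takes the spread of the rest. The edgeR fit of roxadustat against control was run on simulated counts first. The other comparisons and steps were not run on simulated data.

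A Hox gene is given per library if it reached 5 CPM in 1 group and passed between roxadustat and control at day 7 or day 21 (up to 24 genes). Some genes that the rule or a list holds are not reported here, though counts, medians and sums include them. Of other lists up to 4 genes with the smallest p at day 21 are named. Members, lists and rule were chosen with earlier results of these data known. Replicate numbers were not used to pair the samples in the main fit. Deviations of same-numbered libraries of the same day from their group means correlated at -0.18 to 0.06. Across days the value reached 0.23 (replicate 1 of control at day 21 and of roxadustat at day 7). Such values cannot tell if the samples were paired.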

Additional observations from a re-analysis of the deposited data

Results flagged for a closer look

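Among groups of 4 libraries, 92 were checked for a library far from the others, and 5 were found, where chance alone gives about 1 in 20. For Hoxa5 these were control replicate 3 at day 7, the lowest with 26.4 CPM, and roxadustat replicate 1 at day 21, the highest with 31.5 CPM. Hoxb3 was lowest in control replicate 3 at day 7, with 6.33 CPM. Hoxa3 was highest in roxadustat replicate 1 at day 21, with 8.98 CPM. Hoxa2 was lowest in control replicate 2 at day 21, with 4.86 CPM.

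The effect of roxadustat differed between day 7 and day 21, by the interaction test, for 19 of the genes described per library, which had been chosen for passing between roxadustat and control. Over all genes the test passed for 44.7%. The log2 difference (day 21 minus day 7) was 2.29 for Hoxb8, 1.9 for Hoxb9, 1.44 for Hoxb6, 1.28 for Hoxb2, 1.07 for Hoxb7, 0.8 for Hoxb4, 0.69 for Hoxb5 and 0.64 for Hoxb3. In cluster D it was 1.69 for Hoxd8, 1.0 for Hoxd9 and 0.83 for Hoxd4, and in cluster A 1.43 for Hoxa9 and 1.32 for Hoxa10. It was below 0 for Hoxc8 (-1.84), Hoxa2 (-1.53), Hoxc6 (-1.42), Hoxc9 (-1.03), Hoxa5 (-0.64) and Hoxa3 (-0.62).

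The effect also differed between day 0 and day 7 for 8 of the 32 tested Hox genes, or 25%, where 28.9% of all genes passed. The log2 difference (day 7 minus day 0) was 0.95 for Hoxb5, 0.83 for Hoxb8, 0.72 for Hoxb6, 0.52 for Hoxa7, 0.52 for Hoxa9, 0.48 for Hoxb9, 0.43 for Hoxb7 and -0.56 for Hoxd10. The call of Hoxb5 was lost without any 1 of the 4 fresh libraries (adjusted p = 0.053 to 0.0952) and that of Hoxd10 without any 1 of 8 libraries (0.0567 to 0.156) and without a filter (0.132). Without control replicate 1 of day 0 Hoxb7 (0.113), Hoxb8 (0.0953) and Hoxb9 (0.142) were lost, without control replicate 2 Hoxa9 (0.0523), and without roxadustat replicate 2 Hoxa7 (0.0614) and Hoxb7 (0.0701). Cells at day 0 were fresh and those at day 7 cultured, and the way roxadustat was given may differ between them, which cannot be told apart from time.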

How the results depend on the processing

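Of 3663 values at the level of genes, 3509 kept their call and its direction or stayed without a call. Another 102 lost their call, 49 gained one, and 3 gained one with a changed sign. The genes had been chosen for passing between roxadustat and control in the main fit. The 3 with a changed sign came with scaling by library size alone, which moved the median of all genes. They were Hoxa10 in control cells from day 0 to day 7 (0.4, adjusted p = 7.81e-05) and Hoxa9 (0.24, 0.0251) and Hoxa7 (0.28, 0.0141) in roxadustat cells. In the main fit they had no call, at -0.02, -0.2 and -0.16. With library size alone 1 Hox gene was called higher at day 0. Without a filter 0 were called lower in the interaction of day 7 and day 0, and the cause was not tested. With shared exon bases left out, cluster A held 29.5%, 28.4% and 35.9% (control and roxadustat day 7, control day 21), cluster C 5.85%, 16.5% and 37.5% (control days 0, 7 and 21) and cluster D 52.2% (control day 0).

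Leaving out single libraries gave 0 to 1 higher and 0 to 0 lower Hox genes between roxadustat and control at day 0. At day 7 it gave 12 to 13 and 2 to 4, and at day 21 16 to 16 and 8 to 9. From day 0 to day 7 it gave 18 to 22 and 6 to 7 in control and 18 to 22 and 5 to 6 in roxadustat cells, and from day 7 to day 21 9 to 13 and 10 to 12 in control and 10 to 13 and 2 to 3 in roxadustat cells. For the interactions it gave 3 to 7 and 0 to 2 (day 7 and day 0) and 12 to 15 and 5 to 8 (day 21 and day 7). The 2 lower genes at day 7 came without control replicate 4 of that day. With only the groups compared, 0.122% and 0.0257% of all genes were called higher and lower at day 0.

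With the replicate block, roxadustat and control differed at day 0 for 0 higher and 0 lower Hox genes, at day 7 for 12 and 4, and at day 21 for 16 and 8. The block gave 20 and 7 from day 0 to day 7 in control and 19 and 5 in roxadustat cells. From day 7 to day 21 it gave 11 and 11 in control and 12 and 3 in roxadustat cells. For the interactions it gave 7 and 1 (day 7 and day 0) and 13 and 6 (day 21 and day 7). The labels do not say what libraries of the same number share. Genes under about 1 CPM, such as Hoxd3, Hoxd11 and Hoxc13, rest on few counts, and fresh cells on 2 libraries a group.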
